A study of Komagataella phaffii CBS 7435 with 16 samples.

Results

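These 33 nuclear genes of the yeast Komagataella phaffii stood near their 30% oxygen level early at low oxygen and lower at the later samplings. They were chosen from 5564 features in the tables by their measured levels. Counts were scaled to 1000000 counts of nuclear features with suffix t (CPM). A gene was eligible if its largest group mean was at least 10 CPM and it was not among the first or last 20 such rows of a chromosome, and 7 identifiers were left out by name. That left 5034 eligible features. A gene was taken if its log2 ratio of 0.4 volume changes of 0% oxygen over 30% oxygen lay between -0.4 and 0.4. In addition, its log2 ratio of the pooled 4 and 5 volume changes over 30% oxygen had to be at most -0.8. Both ratios were computed after adding 1 CPM.

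The libraries came from chemostat cultures of wild-type strain CBS7435, fed with limiting glucose at 25 °C and pH 5.5 at a dilution rate of 0.075 per hour. The 4 groups have 4 libraries each, called biological replicates in the labels, and share strain, genotype and medium. The labels name them 30% oxygen at 5 volume changes, then 0% oxygen at 0.4, 4 and 5 volume changes, a volume change being a replacement of the reactor's working volume by fresh medium. In the treatment protocol these points are 66 h with 21% oxygen in the inlet air, followed by 5, 50 and 70 h with 8%, so the 0% of the labels is not the inlet concentration. The labels do not say whether replicates of different groups came from the same vessel. The libraries at 0% oxygen were also taken at other culture ages than those at 30%, and oxygen and age cannot be told apart. Total estimated counts ran from 23085262 to 40699763 per library.

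Komagataella phaffii is a methylotrophic yeast that respires sugars and is used to secrete recombinant proteins. Oxygen is the final electron acceptor of its respiratory chain, and several biosynthetic steps, such as those leading to sterols, unsaturated fatty acids and heme, also need it. In a chemostat the dilution rate sets the growth rate at steady state, so cells sampled within hours of a switch and cells sampled after several volume changes differ in how long they have had to adjust.

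The identifiers carry no gene names. The reference table, of the related strain GS115 (assembly ASM2700v1), holds 5040 genes, and 0 of the 5564 identifiers matched it, so genes are given by identifier and no role is assigned to any of them. Since 99.96% of t features had a length divisible by 3, lengths are called coding lengths.

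**Figure D1:**
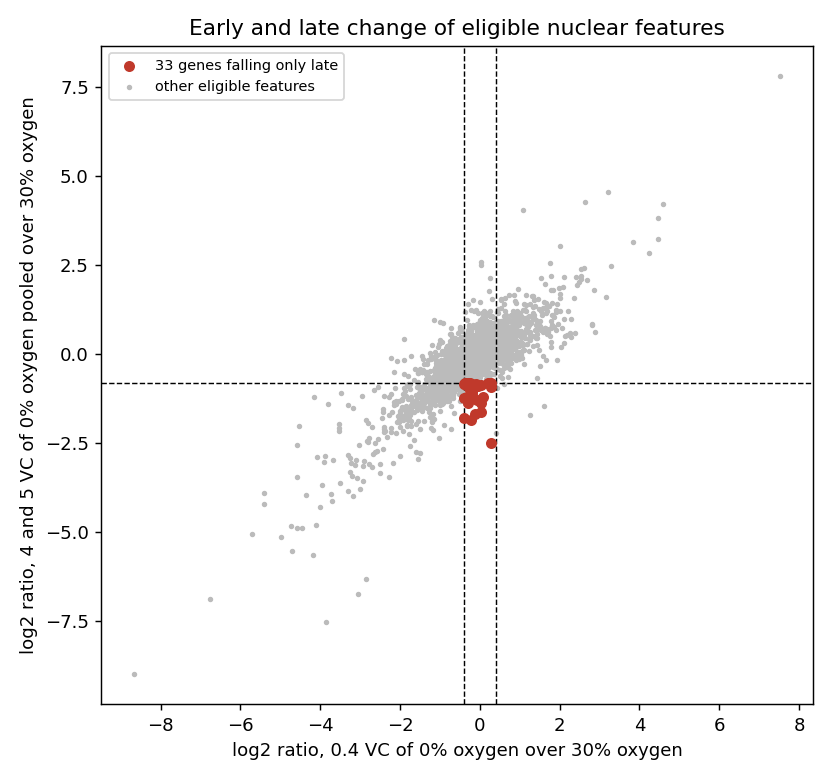
Each point is an eligible nuclear feature, with its log2 ratio of 0.4 volume changes (VC) of 0% oxygen over 30% oxygen on the x axis and of pooled 4 and 5 VC over 30% oxygen on the y axis. Dashed lines mark the limits at -0.4, 0.4 and -0.8, and the 33 genes in red fill the lower centre, reaching down to -2.50.

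Because the levels themselves chose the genes, the levels and their ratios to 30% oxygen are given here as a description without a test. The late log2 ratios ran from -2.50 to -0.80 with a median of -0.91, against a median of -0.03 over all 5034 eligible features. Of the 33 genes, 15 were at least 2-fold lower late than at 30% oxygen and 18 were lowered by less. In 30 genes all 8 late libraries lay below all 4 at 30% oxygen, a separation that 17.7% of eligible features also showed and that the choice of genes favours. In 27 genes all 8 late libraries lay below all 4 at 0.4 volume changes, where the share of eligible features was 8.7%. The choice of genes favours this separation too, since both limits together put the late mean below the early one. In a culture measured in bulk, fewer cells expressing a gene and less RNA per cell cannot be told apart.

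The early point was not flat in every gene. The early log2 ratio was negative in 25 genes and positive in 8, with a median of -0.21, against -0.11 over all eligible features. All 4 libraries at 0.4 volume changes lay below all 4 at 30% oxygen in 8 genes, a pattern held by 32.6% of eligible features. They lay above in 2 genes, PP7435_Chr1-0860.t01 and PP7435_Chr3-0627.t01, a pattern held by 17.4% of eligible features. So "only late" holds within the limits of 0.4 on the log2 scale and does not mean an unmoved early level. With TMM factors the median early ratio of eligible features was 0.01 in place of -0.11, and that of the 33 genes -0.09 in place of -0.21. Under that scaling the rule found 34 genes, of which 24 are among the 33.

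Per library, the median gene stood on the log2 scale between -0.03 and 0.02 of its 30% oxygen mean in the 4 libraries at 30% oxygen. It stood between -0.24 and -0.09 at 0.4 volume changes, between -1.38 and -1.05 at 4, and between -1.02 and -0.80 at 5 volume changes. None of the 4 groups overlapped in this measure. The rule itself sets the late groups apart from those at 30% oxygen and at 0.4 volume changes. The early gap stands beside a median early log2 ratio of -0.105 over all eligible features. The late groups were separated only narrowly, at -1.05 and -1.02. Over eligible features the median deviation of a library from its group mean ran from -0.22 to 0.08 at 4 volume changes. At 5 volume changes it ran from -0.07 to 0.05.

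**Figure D2:**
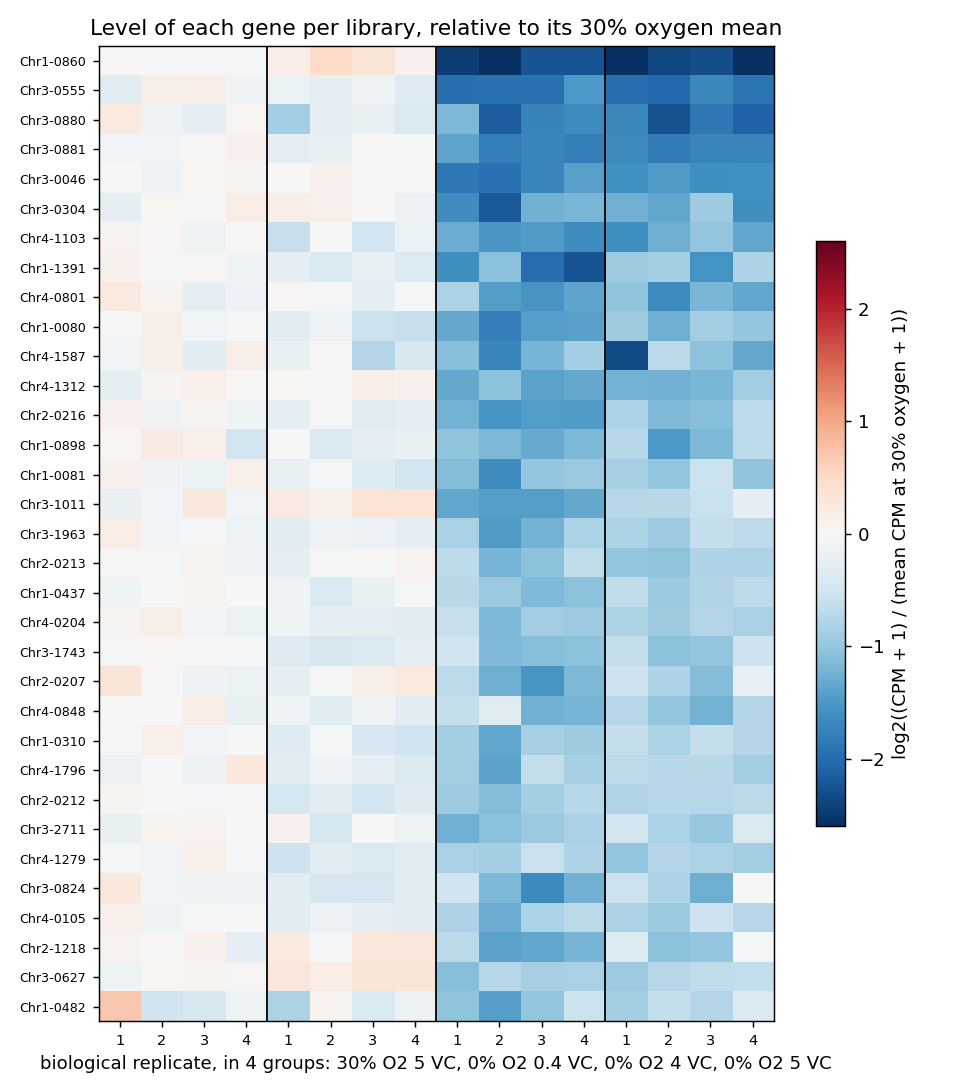
Rows are the 33 genes (labels without the prefix PP7435_ and the suffix .t01), from the lowest late ratio at the top, and columns are the 16 libraries in their 4 groups. Colour gives log2((CPM + 1) / (mean CPM at 30% oxygen + 1)), and blue fills the 8 late columns while the 4 columns at 0.4 volume changes stay pale.

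The deepest late reduction was in PP7435_Chr1-0860.t01 (chromosome 1, 753 nt of coding length). It had 210, 203, 206 and 201 CPM in the 4 libraries at 30% oxygen. At 0% oxygen it had 231, 292, 258 and 223 CPM at 0.4 volume changes, then 36.5, 20.4, 42.7 and 42.6 CPM at 4, and 32.9, 38.7, 40.9 and 28.3 CPM at 5 volume changes. Every early library was above every library at 30% oxygen, and the late libraries were all far below both. Its pooled late mean was 17.3% of its mean at 30% oxygen, and the gene showed no step between the late points, with 17.2% at 5 and 17.4% at 4 volume changes.

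PP7435_Chr3-0555.t01, on chromosome 3 (1185 nt), had 69.2, 95.3, 96.8 and 79.3 CPM at 30% oxygen and 75.2, 72.3, 77.8 and 67.4 CPM at 0.4 volume changes. It had 21.0, 21.5, 21.5 and 29.7 CPM at 4 volume changes and 20.9, 20.1, 25.9 and 22.1 CPM at 5. The first pair of groups overlapped, the late pair overlapped, and the late libraries lay below all others, at a pooled 26.8% of the 30% oxygen mean.

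PP7435_Chr3-0880.t01 and PP7435_Chr3-0881.t01 stand in adjacent rows of chromosome 3, with coding lengths of 216 and 741 nt, and both are among the 8 lowest late ratios. PP7435_Chr3-0881.t01 had 103, 104, 111 and 117 CPM at 30% oxygen, 92.6, 94.8, 112 and 105 CPM at 0.4 volume changes, 41.4, 30.9, 32.8 and 31.2 CPM at 4, and 34.1, 30.4, 32.5 and 32.7 CPM at 5 volume changes. PP7435_Chr3-0880.t01 was counted less often, with 26.8, 20.2, 18.8 and 22.8 at 30% oxygen, 11.5, 18.5, 19.2 and 16.9 at 0.4 volume changes, 9.27, 4.17, 5.91 and 6.43 at 4, and 6.23, 3.83, 5.34 and 4.38 at 5 volume changes. In both genes the 8 late libraries were below the 8 others. As deposited TPM, PP7435_Chr3-0880.t01 was the higher of the pair at 30% oxygen, with 269.7 ± 17.0 TPM against 127.1 ± 9.18 TPM for PP7435_Chr3-0881.t01 (SD, n = 4). TPM is scaled by effective length and not by the coding lengths given here, so this is not an order of counts per coding nucleotide. The early log2 ratio of PP7435_Chr3-0880.t01, -0.40, lay just inside the limit.

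PP7435_Chr3-0046.t01 (585 nt) was the flattest early of the deeply lowered genes. It had 67.8, 62.8, 70.4 and 71.3 CPM at 30% oxygen, 68.2, 73.1, 68.3 and 65.9 CPM at 0.4 volume changes, 18.0, 17.0, 20.4 and 24.8 CPM at 4, and 22.3, 23.7, 22.0 and 22.2 CPM at 5 volume changes. The groups at 30% oxygen and 0.4 volume changes overlapped, and the late libraries held a pooled 31.3% of the 30% oxygen mean.

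PP7435_Chr3-0304.t01 (408 nt) and PP7435_Chr4-1103.t01 (249 nt) had the same late log2 ratio of -1.38. PP7435_Chr3-0304.t01 had 32.9, 40.2, 37.2 and 44.5 CPM at 30% oxygen, 43.4, 42.4, 38.7 and 34.6 CPM at 0.4 volume changes, 11.9, 7.70, 15.6 and 16.4 CPM at 4, and 15.6, 14.5, 20.1 and 12.2 CPM at 5 volume changes. PP7435_Chr4-1103.t01 had 21.2, 20.3, 18.1 and 20.2 CPM at 30% oxygen, 12.8, 20.2, 13.9 and 17.7 CPM at 0.4 volume changes, 7.55, 6.34, 6.56 and 5.74 CPM at 4, and 5.89, 7.71, 9.35 and 7.23 CPM at 5 volume changes. Both kept the late libraries below all others, but in PP7435_Chr4-1103.t01 some early libraries were already lower than at 30% oxygen.

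**Figure D3:**
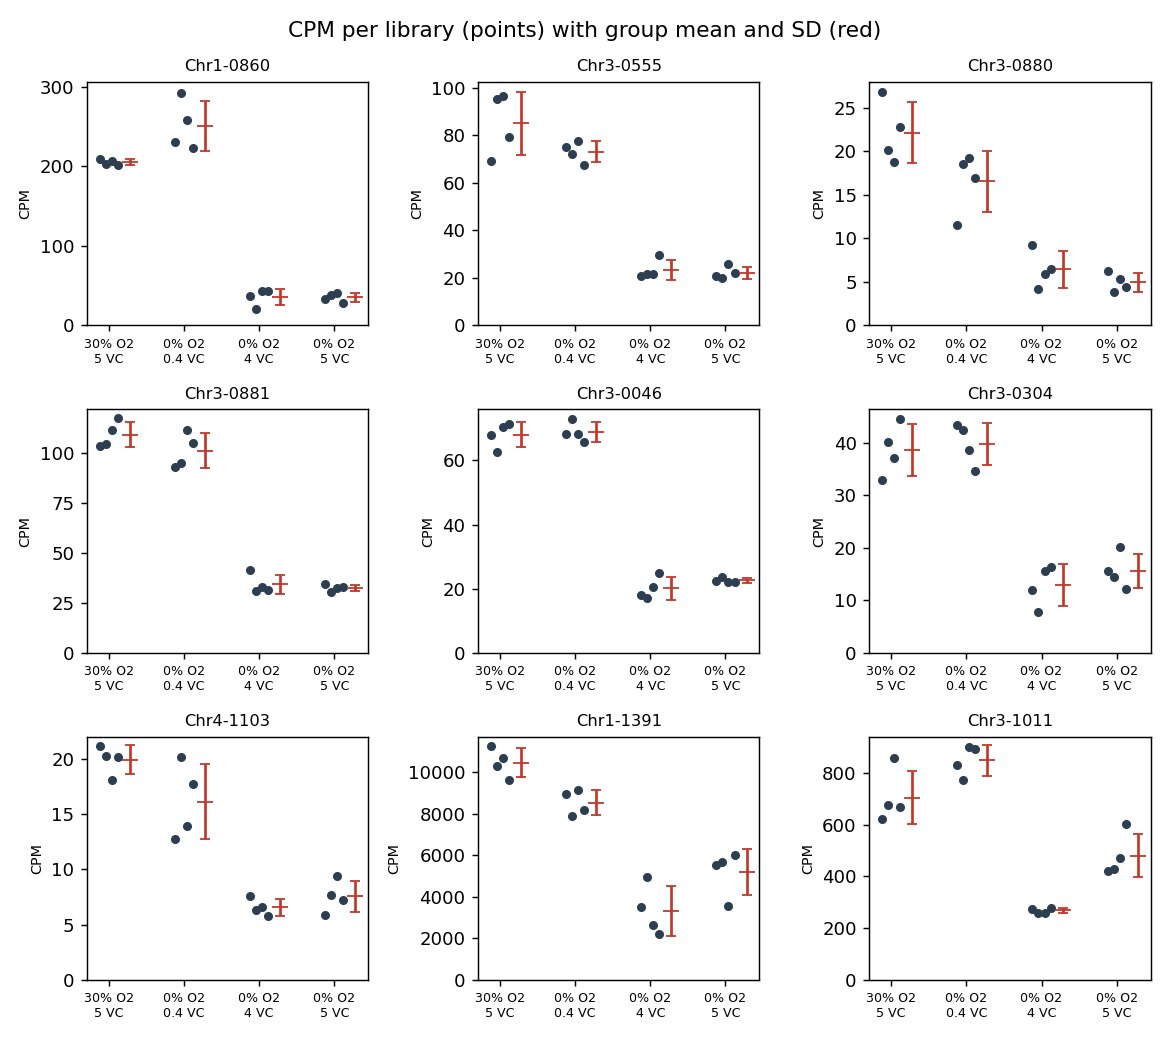
CPM (y axis, from 0) in each library (points) of the 4 groups (x axis), with the group mean and SD in red, for the 8 genes with the lowest late ratio and for PP7435_Chr3-1011.t01. In the first 7 panels the late groups sit together near the bottom, whereas PP7435_Chr3-1011.t01 averages 480.5 CPM at 5 and 268.3 CPM at 4 volume changes.

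The most abundant of the 33 was PP7435_Chr1-1391.t01 (chromosome 1, 408 nt). At 30% oxygen it had 11267, 10292, 10681 and 9624 CPM, and at 0.4 volume changes 8948, 7898, 9141 and 8173 CPM. It had 3488, 4961, 2637 and 2195 CPM at 4 volume changes and 5512, 5670, 3570 and 6026 CPM at 5. All 4 libraries at 0.4 volume changes were already below those at 30% oxygen. The late libraries scattered more than the early ones, with a coefficient of variation of up to 36.7% within a group, and the late groups overlapped. As deposited TPM it reached 32897 ± 2037 at 30% oxygen (SD, n = 4), where the TPM means of the 33 genes began at 22.6.

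Because of PP7435_Chr1-1391.t01, the summed share of the 33 genes in nuclear counts mostly follows this gene, which supplied 56.9% of their summed CPM at 30% oxygen. The summed share averaged 1.84 ± 0.0794% at 30% oxygen and 1.69 ± 0.0739%, 0.700 ± 0.120% and 0.971 ± 0.135% at 0.4, 4 and 5 volume changes of 0% oxygen (SD, n = 4). The other 32 genes together took 0.793 ± 0.0168%, 0.839 ± 0.0309%, 0.368 ± 0.0161% and 0.452 ± 0.0450% in the same order (SD, n = 4).

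The rule for named genes also took the 4 next most counted genes at 30% oxygen. PP7435_Chr3-0627.t01 (2004 nt), the longest of them, had 2117, 2398, 2426 and 2359 CPM at 30% oxygen and 2848, 2641, 2879 and 2879 CPM at 0.4 volume changes. Its late values were 1079, 1392, 1271 and 1295 CPM at 4 volume changes and 1215, 1397, 1466 and 1488 CPM at 5. The early libraries were thus above, and the late libraries below, every library at 30% oxygen. Its late log2 ratio of -0.81 was close to the limit of the rule.

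PP7435_Chr4-1312.t01 (1242 nt) had 683, 853, 891 and 826 CPM at 30% oxygen, 838, 796, 914 and 881 CPM at 0.4 volume changes, 324, 385, 307 and 321 CPM at 4, and 346, 342, 356 and 434 CPM at 5 volume changes. Its late libraries held a pooled 43.3% of the 30% oxygen mean and did not reach the lowest of the others. PP7435_Chr2-0207.t01 (414 nt) had 1536, 1190, 1106 and 1095 CPM at 30% oxygen, 1032, 1193, 1364 and 1467 CPM at 0.4 volume changes, 772, 512, 430 and 550 CPM at 4, and 853, 709, 560 and 1058 CPM at 5 volume changes. Here 1 library at 5 volume changes exceeded the lowest early library, so late and early groups overlapped.

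Many of the genes were counted at a low or middle level. Mean CPM at 30% oxygen was under 50 in 12 of the 33, from 50 to 200 in 12, and above 200 in 9. The shortest, and the least counted at 30% oxygen, was PP7435_Chr4-1587.t01 (195 nt), with means of 11.3 ± 1.70 CPM at 30% oxygen and 8.86 ± 2.13, 4.37 ± 1.21 and 4.21 ± 2.15 CPM at 0.4, 4 and 5 volume changes (SD, n = 4). Its value of 1.45 CPM in replicate 1 at 5 volume changes rested on 57 estimated counts, the lowest count of any of the 33 genes in any library. Its coefficient of variation at 5 volume changes, 51.1%, was the largest among the genes.

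The second most variable gene was PP7435_Chr1-0482.t01 (264 nt), with 24.3, 9.82, 10.6 and 13.3 CPM at 30% oxygen, 7.72, 15.6, 10.7 and 13.0 CPM at 0.4 volume changes, 6.47, 4.78, 6.62 and 9.59 CPM at 4, and 7.42, 9.11, 8.11 and 11.0 CPM at 5 volume changes. The groups overlapped, and its high value in replicate 1 at 30% oxygen raises the mean it was selected against. It lay nearest inside the late limit, at -0.80. Without that library its late log2 ratio was -0.46, outside the limit. Nearest outside that limit were PP7435_Chr4-0518.t01, with a late log2 ratio of -0.78, and PP7435_Chr2-0985.t01, also at -0.78. Nearest outside the early limit were PP7435_Chr2-0415.t01, with an early log2 ratio of 0.41 and a late one of -2.21, and PP7435_Chr2-0940.t01, with -0.42 and -1.26.

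The other 13 genes were PP7435_Chr4-0801.t01, PP7435_Chr1-0898.t01, PP7435_Chr3-1963.t01, PP7435_Chr1-0437.t01, PP7435_Chr4-0204.t01, PP7435_Chr3-1743.t01, PP7435_Chr4-0848.t01, PP7435_Chr4-1796.t01, PP7435_Chr3-2711.t01, PP7435_Chr4-1279.t01, PP7435_Chr3-0824.t01, PP7435_Chr4-0105.t01 and PP7435_Chr2-1218.t01. Their coding lengths ran from 390 to 2226 nt and their means at 30% oxygen from 15.6 to 348.9 CPM. Their pooled late means were 38.7% to 56.8% of those at 30% oxygen. In 11 of these 13 the late libraries lay below all 4 at 30% oxygen, a separation that 17.7% of eligible features showed and that the rule favours.

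The genes included many with short coding lengths. The median length of the 33 genes was 783 nt, against 1194 nt over eligible features, and 10 genes (30.3%) were under 500 nt, against 11.2% of eligible features. The 52 eligible features with the mirrored pattern, flat early and at least 0.8 higher late, had a median of 1278 nt, with 5.77% under 500 nt. The 324 features lowered both early and late by at least 0.8 had a median of 1208 nt, with 12.3% under 500 nt. These are descriptions of lists chosen by their values and were not tested. The lists were chosen on CPM. With deposited TPM the rule found 31 genes, of which 28 are among the 33, and the late log2 ratio of PP7435_Chr1-0482.t01 (264 nt) was -0.79, outside the limit. How the lengths compare under TPM was not tested. Estimated counts that are not whole arise where reads are shared between features. With a tolerance of 1e-06, 0 of the 33 genes had such a count in any library, whereas 218 of the 5564 features had.

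By chromosome, the genes numbered 8 of 1554 eligible features on chromosome 1 and 5 of 1282 on chromosome 2. They numbered 11 of 1213 on chromosome 3 and 9 of 985 on chromosome 4. Direct neighbours in row order formed 3 pairs, and 10 of the 33 genes had another of them within 10 rows. Besides PP7435_Chr3-0880.t01 and PP7435_Chr3-0881.t01, the pairs were PP7435_Chr1-0080.t01 with PP7435_Chr1-0081.t01 and PP7435_Chr2-0212.t01 with PP7435_Chr2-0213.t01. The 57 eligible features directly beside the 33 genes, without being among them, had a median late log2 ratio of -0.21, against -0.03 over eligible features, and 66.7% of them had a negative ratio, against 52.9%.

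PP7435_Chr1-0081.t01, at 5370 nt the longest of the genes, averaged 382.5 ± 38.5 CPM at 30% oxygen and 319.7 ± 42.5, 170.7 ± 33.1 and 210.0 ± 34.9 CPM at 0.4, 4 and 5 volume changes (SD, n = 4). Its neighbour PP7435_Chr1-0080.t01 (1185 nt) had 85.5, 97.2, 83.3 and 83.9 CPM at 30% oxygen, 70.7, 79.8, 59.1 and 57.2 CPM at 0.4 volume changes, 34.0, 24.6, 31.9 and 32.1 CPM at 4, and 45.9, 35.5, 46.4 and 42.9 CPM at 5 volume changes. In PP7435_Chr1-0080.t01 the 4 groups did not overlap at all, so it was lower than at 30% oxygen in every early library as well. Whether reads of overlapping or antisense transcripts contribute to such pairs was not tested, since coordinates are not used here and the sources do not say whether counting used strand.

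On chromosome 2, 4 of the genes fell within 11 consecutive rows, a window singled out after its values were seen. PP7435_Chr2-0212.t01 (1785 nt) averaged 183.3 ± 5.71 CPM at 30% oxygen and 138.7 ± 9.51, 96.4 ± 10.6 and 109.1 ± 2.93 CPM at 0.4, 4 and 5 volume changes, and PP7435_Chr2-0213.t01 (1047 nt) averaged 96.3 ± 4.70, 93.8 ± 9.52, 51.8 ± 9.74 and 50.8 ± 4.47 CPM in the same order (SD, n = 4). PP7435_Chr2-0212.t01 lay nearest inside the early limit, with an early log2 ratio of -0.3995. All its libraries at 0.4 volume changes were below all 4 at 30% oxygen, a pattern held by 32.6% of eligible features. The rule found it in 10 of 16 runs that left out a library, and with TMM factors its late log2 ratio was -0.797, outside the limit. The window also holds PP7435_Chr2-0207.t01, given above, and PP7435_Chr2-0216.t01, given below. The 7 other features in these rows had late log2 ratios from -0.55 to 0.09, so the reduction did not extend over the whole window.

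The rule pools the late sampling points, so it did not use the difference between them. It did use the levels at both, so a low level at either point helped a gene to be chosen. The counts of changed genes below carry this limit. The difference was tested with edgeR's quasi-likelihood test over all 5452 features that passed the count filter, and all 33 genes passed it. PP7435_Chr3-1011.t01, on chromosome 3 (1248 nt), rose at 5 against 4 volume changes, and it alone passed the test. It had 621, 676, 857 and 668 CPM at 30% oxygen, 831, 772, 899 and 893 CPM at 0.4 volume changes, 275, 259, 260 and 279 CPM at 4, and 421, 428, 470 and 602 CPM at 5 volume changes. Every library at 5 volume changes lay above every library at 4, and below every library at 30% oxygen. The log2 change from 4 to 5 volume changes was 0.82 ± 0.14 (SE), with an adjusted p of 0.0107 in edgeR's quasi-likelihood test. The gene stood at 68.1% of its 30% oxygen mean at 5 volume changes and at 38.0% at 4. With each late point considered alone, it met the late limit at 4 volume changes, with a log2 ratio of -1.39. At 5 volume changes it did not, with -0.55.

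Thus 1 of the 33 genes was called higher and 0 were called lower, where edgeR called 0.642% of all tested features, 0.459% higher and 0.183% lower. At an unadjusted p under 0.05, 11 of the 33 were higher and 0 lower, where 6.42% of all tested features were higher and 5.83% lower. DESeq2 called 3 of the 33 higher and 0 lower, where it called 1.27% of all tested features higher. In edgeR the count called higher was 2 without replicate 2 at 4 volume changes, where 0.586% of all tested features were called higher. It was 3 without replicate 2 at 5 volume changes, against 0.532% of all tested features, and 2 without replicate 3 at 5, against 0.329%. The call of PP7435_Chr3-1011.t01 was lost when the 8 libraries of the late points were fitted alone, where edgeR gave a log2 change of 0.82 with an adjusted p of 0.142 and called 0 features of the whole table. Over all alternatives its adjusted p ran from 4.11e-06 to 0.142.

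The 3 genes next in order of p were not called in edgeR's fit of all 16 libraries. PP7435_Chr2-0216.t01 (1350 nt) had 105, 91.5, 102 and 90.0 CPM at 30% oxygen, 81.3, 94.6, 78.2 and 82.2 CPM at 0.4 volume changes, 41.0, 32.4, 35.0 and 34.5 CPM at 4, and 54.7, 43.4, 44.3 and 59.8 CPM at 5 volume changes. Its log2 change between the late points was 0.48 ± 0.11 (SE), with an adjusted p of 0.0552 in edgeR and from 0.00463 to 0.363 over the alternatives. It was called without replicate 2 or without replicate 3 at 5 volume changes, with adjusted p of 0.0479 and 0.0341 in edgeR, and also with upper-quartile factors, at 0.0436 in edgeR, and in DESeq2, at 0.00463. The change of PP7435_Chr1-0080.t01 was 0.46 ± 0.11 (SE), with an adjusted p of 0.0617 in edgeR and from 0.00715 to 0.328 over the alternatives, and it was called without replicate 2 at 5 volume changes, at 0.0365, and in DESeq2, at 0.00715. PP7435_Chr1-0310.t01 (717 nt) averaged 106.3 ± 7.30 CPM at 5 and 86.3 ± 12.6 CPM at 4 volume changes (SD, n = 4), a log2 change of 0.29 ± 0.09 (SE) with an adjusted p of 0.158 in edgeR. In these 3 genes and in PP7435_Chr3-1011.t01, every library at 5 volume changes was above every library at 4, which held for 4 of the 33 genes and for 2.4% of eligible features. The reverse held for 0 of the 33 genes and for 1.23% of eligible features.

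Across all 33 genes the estimated change from 4 to 5 volume changes was positive in 24 and negative in 9, with a median of 0.17 on the log2 scale. Over all tested features 49.9% of changes were positive, with a median of 0.00. The 52 features with the mirrored pattern moved the other way, with 43 negative and 9 positive changes and a median of -0.16. Among the 324 features lowered early and late, 161 changes were positive and 163 negative. In both late-changing lists most estimates therefore pointed back towards the level at 30% oxygen, a description without a test. Both lists were chosen by their pooled late levels, so a gene extreme at either late point could enter. How far this choice shaped the direction was not tested, and no recovery is inferred. With each late point considered alone, 19 of the 33 genes met the late limit at 5 volume changes and 31 at 4. Among the 8 genes with the lowest late ratio, 4 estimates were negative and 4 positive, from -0.38 ± 0.20 (SE) for PP7435_Chr3-0880.t01 to 0.59 ± 0.26 (SE) for PP7435_Chr1-1391.t01, and none of the 8 was called by edgeR.

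**Figure D4:**
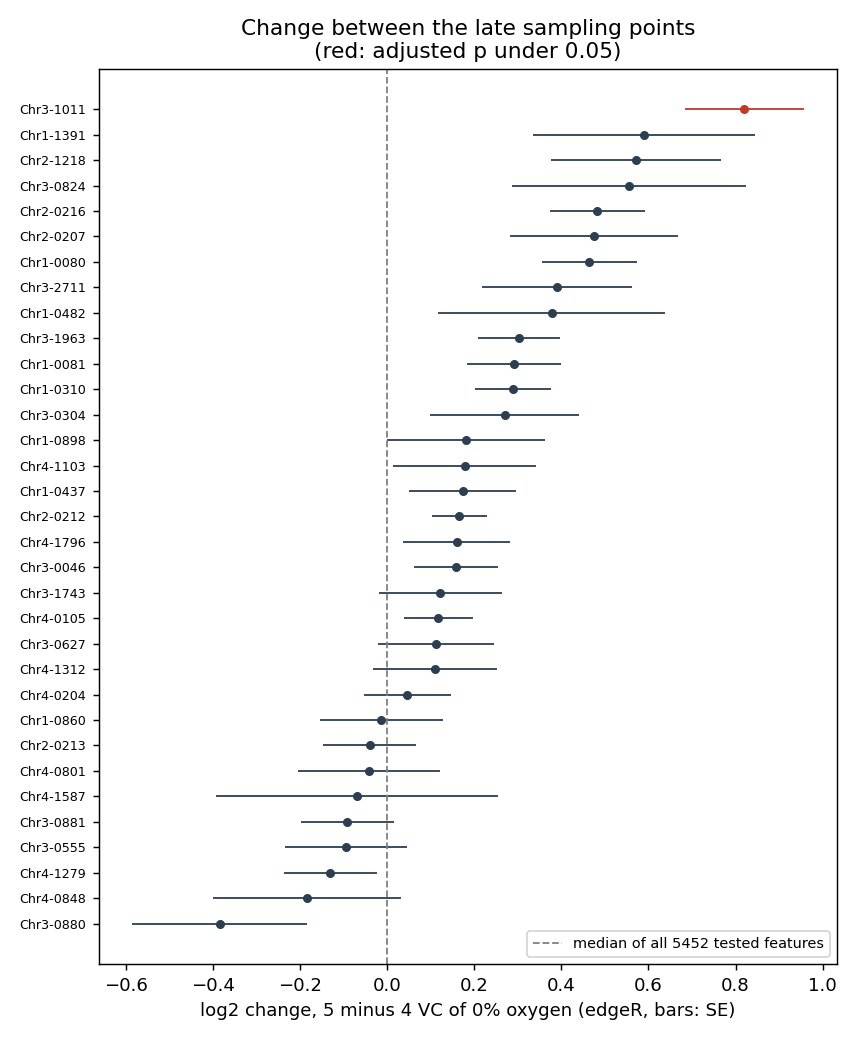
Estimated log2 change from 4 to 5 volume changes of 0% oxygen (x axis, bars are SE from edgeR) for each of the 33 genes, labelled in the same short form and ordered by size. PP7435_Chr3-1011.t01 in red is the gene with an adjusted p under 0.05, and 24 of the 33 points lie to the right of 0.

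Variation within groups was not used by the rule. After removing group means from log2(CPM + 1), the median correlation over their 528 pairs was 0.175 across the 16 libraries, against 0.187 over all pairs of eligible features. These pairs share the same libraries and the same scaling, and the values are a description. Replicate 2 at 4 volume changes lay below its group mean in most of the genes and above it in 6 of the 33, with a median deviation from its group mean of -0.19 on the log2 scale in the 33 genes and -0.22 over eligible features. Its part in the differences between the late points was not tested beyond leaving it out, after which edgeR called 2 of the 33 genes higher at 5 volume changes and 0 lower, and 41 of all tested features in either direction.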

How the data were processed

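Ribosomal RNA was depleted and directional libraries were made, per the labels' protocols. The deposited tables give each feature's length, an estimated count, which is not normalised and need not be whole, and a TPM value, which is scaled by effective length, per the file headers. Tools named without a role in the submitters' processing notes are kallisto 0.44.0, DESeq2 1.36.0, R 4.2.0, SAMtools 1.9, Bowtie2 2.3.4.1 and cutadapt 1.18. Build, annotation and strand setting: the sources used here do not give them.

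CPM were computed from the deposited estimated counts over nuclear t features. Counts were rounded to whole numbers and fitted in edgeR 4.0.16 (R 4.3.3) with filterByExpr, TMM factors and a quasi-likelihood model of 4 group means over 16 libraries. Genes were called at a Benjamini-Hochberg adjusted p under 0.05. SEs of log2 changes were derived from the F statistic. In simulated data for 5 against 4 volume changes (5452 genes), 4% of genes planted at 1.25-fold, 72% at 1.5-fold and 100% at 2-fold were recovered, and 6 unchanged genes were called. The simulation gave every gene the same spread and made libraries independent, so these shares need not hold for the real genes.

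The genes and lists were chosen with earlier results of these data known. Genes were named by fixed rules: the 8 lowest late ratios, 4 further genes by CPM at 30% oxygen, those nearest each limit, the 4 smallest p between late points, direct neighbours, the length extremes and the 2 most variable. This named 20 of the 33. Alternatives were other scalings (RLE, upper quartile), DESeq2 1.42.0, limma 3.58.1 (voom, or log2 of TPM plus 1 or 0.1), other filters and limits, a replicate block, and leaving out single libraries. No 2 libraries of a group agreed within sampling noise: the lowest chi-square was 19.2 per degree of freedom. The labels call the replicates biological but do not say that they were separate cultures. The p-values therefore weigh a difference against the spread between these libraries, which may not be separate cultures.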

Additional observations from a re-analysis of the deposited data

Results flagged for a closer look

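In 84 sets of 4 libraries, the 20 named genes and the summed share in each group, 6 held a library flagged as apart from the other 3. Apart here is relative to how close those 3 lay, not a matter of absolute distance. For independent sets chance would give about 1 in 20, or 4.2. These sets share libraries, and 2 of the genes were named for their variation, so the 2 numbers are not strictly comparable. PP7435_Chr1-0482.t01 at 30% oxygen, with 24.3 CPM in replicate 1 and 9.82 to 13.3 CPM in the others, was not flagged. At 4 volume changes, replicate 4 had 29.7 CPM of PP7435_Chr3-0555.t01 and the others 21.0 to 21.5 CPM. Replicate 2 of the same group had 67.7 CPM of PP7435_Chr1-0310.t01 and the others 90.6 to 95.3 CPM. At 5 volume changes, replicate 2 had 23.7 CPM of PP7435_Chr3-0046.t01 and the others 22.0 to 22.3 CPM. Replicate 4 of that group had 434.1 CPM of PP7435_Chr4-1312.t01 and the others 342.3 to 356.1 CPM. At 30% oxygen, replicate 2 had 97.2 CPM of PP7435_Chr1-0080.t01 and the others 83.3 to 85.5 CPM. At 0.4 volume changes, replicate 2 had 2641 CPM of PP7435_Chr3-0627.t01 and the others 2848 to 2879 CPM.

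Between the late sampling points PP7435_Chr3-1011.t01 differed, by a log2 change of 0.82 at 5 against 4 volume changes, with an adjusted p of 0.0107 in edgeR's quasi-likelihood test and with 4 of 4 libraries above those at 4 volume changes.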

How the results depend on the processing

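The number of genes found by the rule, 33, was 21 with 5 volume changes alone as the late group, 15 with a late limit of -1, 75 with a limit of -0.6 and 21 with a largest mean of at least 50 CPM. It stayed within 1.5 times under the other planned settings. Leaving out a library gave 23 to 36 genes, and 17 of the 33 were found in all 16 such runs. The late log2 ratio of the median gene, -0.91, whose sign the rule fixes, was -0.98 to -0.86 when a library was left out. Genes called higher at 5 than at 4 volume changes numbered 2 with upper-quartile factors, where 0.532% of all tested features were called higher. They numbered 3 in DESeq2, against 1.27%, and 0 in the fit of the 8 late libraries, against 0%. When a library was left out they numbered 1 to 3. There were 2 without replicate 2 at 4 volume changes, against 0.586%. Without replicates 2 and 3 at 5 there were 3 and 2, against 0.532% and 0.329%. All features called between these points, 35 in edgeR, numbered 113 in DESeq2, 5 in limma on log2(TPM + 1), 5 on log2(TPM + 0.1) and 0 in the fit of 8 libraries. They numbered 16 to 41 when a library was left out, with 20 and 19 without replicates 3 and 4 at 4 volume changes and 19 and 16 without replicates 3 and 4 at 5. The causes were not tested. Over its alternatives the adjusted p of PP7435_Chr3-1011.t01 ran from 4.11e-06 to 0.142. The labels do not say that replicate numbers mark a shared vessel, and the numbers missed the limit for pairing: same-numbered deviations correlated between -0.45 and 0.43, with 9 of 24 pairs over 0.1 (0.41, 0.18, 0.43 and -0.20 between 5 and 4 volume changes), and 6 of 16 libraries correlated best with their own number. With the replicate block edgeR called 29 features, and 1 of the 33 genes higher. The shortest gene, PP7435_Chr4-1587.t01, had at least 57 estimated counts per library and 248.8 on average. Whether low counts account for its spread was not tested.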
